A study of Mus musculus with 6 samples.

Results

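Serpins are protease inhibitors that offer a protease an exposed bait, the reactive-centre loop, and trap the enzyme covalently once it has cut the loop. The genes described here are 2 neighbours of the mouse Serpina3 cluster, Serpina3f and Serpina3g, and 4 clade B serpins, Serpinb1a, Serpinb6a, Serpinb6b and Serpinb9. They were taken by gene symbol, 6 of the 21825 rows of the deposited gene table, which holds 19 serpin rows in all. They were chosen by their counts in these same libraries, with the differences between the culture conditions already known, so their own differences are given as a description and not as a test. Serpina3g, also called Spi2A, acts inside cells on lysosomal cathepsins and was described as an NF-kB target in mouse fibroblasts exposed to TNF. Clade B serpins also work inside cells. Serpinb1a inhibits the elastase-type proteases of granulocytes, Serpinb6a inhibits cathepsin G and trypsin-like proteases, and Serpinb9 inhibits granzyme B and protects cytotoxic lymphocytes from their own enzyme.

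The cells were group 2 innate lymphoid cells (ILC2s), lymphocytes without a rearranged antigen receptor that make type 2 cytokines. They were sorted from lungs of BALB/c mice, 6 weeks old, that had received IL-33 into the peritoneum 3 times at 1 µg. Culture lasted 48 h in medium holding 10 ng/mL of IL-2 and 10 ng/mL of IL-7, and TNFa at 40 ng/mL (replicates 4, 5 and 6) or PBS (replicates 1, 2 and 3) was added. All libraries thus come from cells exposed to IL-33, IL-2 and IL-7, and none from cells without them. Nothing in the labels ties a library to its own animal or culture, and PBS replicate 2 is marked there as a repeat, so the errors and p-values cover variation among these libraries, which may be technical.

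Gene counts summed to 25089415 to 32487004 per library. TNFa replicate 5 stood apart from the rest, with a mean correlation of 0.949 with the other libraries against 0.964 to 0.967 for each of the others. Of 15 ILC2 markers, all in the table, 6 had positive and 9 negative fitted values, 1 was called lower with TNFa (Icos) and Thy1 was sparse, at 3.35 CPM (counts scaled for library size) with TNFa and 2.76 CPM with PBS. An unadjusted p under 0.05 (edgeR) was reached by 10 of the 15, against 8.31% of all tested genes, and DESeq2 called 4. The groups did not overlap for 2 higher and 7 lower markers, against 6.85% and 8.35% of all tested genes. Gata3 was at 704.9 ± 52.0 CPM with TNFa and 977.8 ± 71.8 CPM with PBS, and Il1rl1, the IL-33 receptor gene, at 424.5 ± 49.8 CPM with TNFa and 616.3 ± 64.9 CPM with PBS (mean ± SD, n = 3 each). Il5, the most abundant marker, was higher without overlap, at 5442 ± 308.3 CPM with TNFa and 4520 ± 447.6 CPM with PBS. Il2ra was at 2228 ± 154.9 CPM with TNFa and 1841 ± 216.4 CPM with PBS, with overlap. Mast cell protease transcripts were present in every library, the 10 mast cell and basophil markers of the table summing to 1382 to 1566 CPM with TNFa and 1339 to 1474 CPM with PBS. Myeloid markers summed to 38.2 to 66.8 CPM with TNFa and 53.7 to 109.8 CPM with PBS. B cell markers summed to 80.0 to 204.5 CPM with TNFa, lowest in replicate 5, and 146.6 to 176.8 CPM with PBS. Structural cell markers summed to 148.5 to 208.4 CPM with TNFa and 124.5 to 154.2 CPM with PBS. T cell markers summed to 388.7 to 443.3 CPM with TNFa and 460.7 to 493.0 CPM with PBS, without overlap. The 10 markers of NK cells and ILC1s summed to 22.2 to 29.5 CPM with TNFa and 44.5 to 74.7 CPM with PBS, and the 9 other than Gzma to 9.49 to 13.7 CPM with TNFa and 10.4 to 13.5 CPM with PBS, with overlap. In such bulk cultures, fewer cells of a type and less RNA per cell cannot be told apart.

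How far the counts of the members can be separated depends on their sequences, which are shown first. Serpina3f and Serpina3g lie 15.1 kb apart on the plus strand of chromosome 12 (mm10), at 104214544 to 104221129 and 104236245 to 104241939, followed by the pseudogene Serpina3h and the gene Serpina3i, all within 54.8 kb. Their coding sequences in GENCODE M21 were 87.4% identical over 744 aligned bases. The annotated coding sequence has 1335 bases in Serpina3f and 744 in Serpina3g, so 591 bases of Serpina3f had no partner and were not compared. The longest stretch without a difference in this coding alignment ran over 56 bases, which does not describe the rest of the transcripts. The least alike stretch with windows of at least 90% identity on both sides had 24 differences in 60 alignment columns. It lies where serpins encode the reactive-centre loop, and it is shown because it tells the reads of these genes apart and carries the bait of each inhibitor. Capitals mark bases that differ or have no partner in the other gene; it spans coding bases 1076 to 1135 of Serpina3f and 500 to 556 of Serpina3g, counted from the first base of each annotated coding sequence.
Serpina3f: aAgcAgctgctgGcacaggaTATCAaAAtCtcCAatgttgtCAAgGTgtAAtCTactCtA
Serpina3g: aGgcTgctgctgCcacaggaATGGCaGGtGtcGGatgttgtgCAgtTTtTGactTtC

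Elsewhere in the shared coding sequence, windows of 60 columns reached 98.3% identity. Beyond this stretch identity returned to 93.3%, and at the 3′ end it fell to 51.7%. Of all windows of 50 bases in the annotated transcripts, 10.6% of those of Serpina3f and 15.5% of those of Serpina3g occurred in another gene, all of them serpins. Serpina3f had 138 such windows in common with Serpina3g, and Serpina3g shared 195 with the pseudogene Serpina3h and 150 with Serpina3i. Most windows of each gene of the pair thus belonged to that gene alone. For Serpinb1a, Serpinb6b and Serpinb9 the shared portion was 2.81%, 2.92% and 0.38%. Serpinb6a was different: 25.1% of its windows occurred in another gene but only 0.51% in another serpin. Its exons overlap those of Nqo2, Ripk1 and 1110046J04Rik on the opposite strand, and whether the counting used strand is not given in the sources used here. Without strand, reads of Serpinb6a and of these genes cannot be told apart where they overlap.

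**Figure D1:**
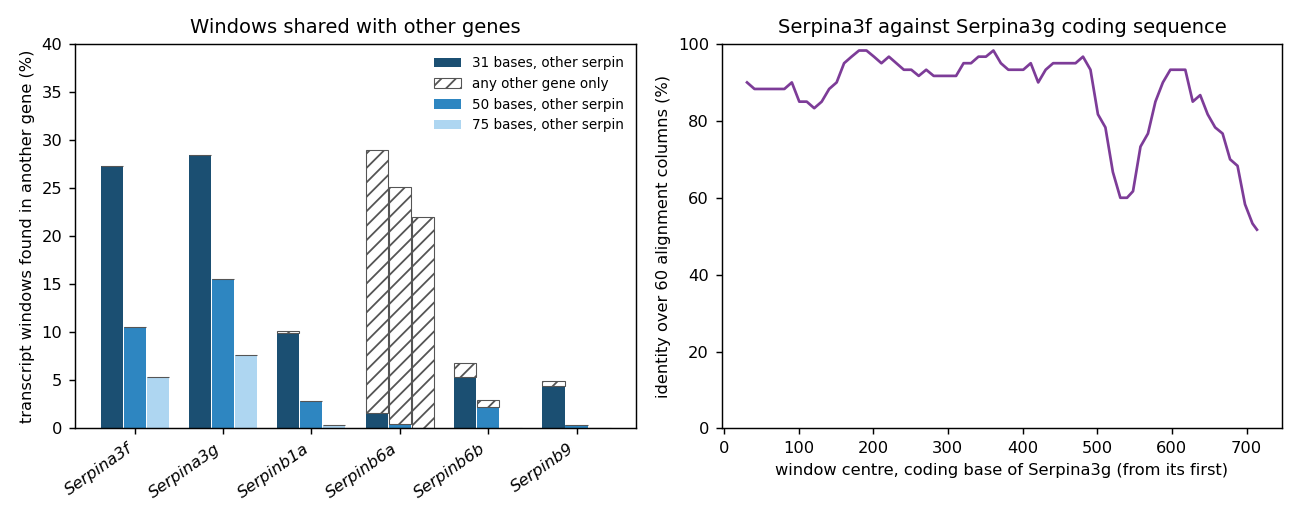
Left, percent of transcript windows of 31, 50 and 75 bases that occur in another gene, with solid bars for another serpin and hatched bars for other genes only; the Serpina3 pair shares windows with serpins, and Serpinb6a mostly with genes on the opposite strand. Right, identity of the Serpina3f and Serpina3g coding sequences over 60 alignment columns, by the position of the window in Serpina3g; the dip between positions 500 and 556 is the stretch printed in the text.

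The regions around the transcription starts of the genes that were higher with TNFa are shown next, 250 bases before to 50 bases after the start, from RefSeq (GRCm38.p6, the assembly of mm10). A region was found for 5 of the 6 members. Capitals mark matches on either strand to the letters of NF-kB (GGG and CC with 5 free bases between them), of STAT factors (TTCNNNGAA, the gamma-activated sequence) or of the interferon-stimulated response element (GAAA and again GAAA with 2 free bases between them); overlapping matches run together.
Serpina3f, chr12:104214294-104214593, plus strand: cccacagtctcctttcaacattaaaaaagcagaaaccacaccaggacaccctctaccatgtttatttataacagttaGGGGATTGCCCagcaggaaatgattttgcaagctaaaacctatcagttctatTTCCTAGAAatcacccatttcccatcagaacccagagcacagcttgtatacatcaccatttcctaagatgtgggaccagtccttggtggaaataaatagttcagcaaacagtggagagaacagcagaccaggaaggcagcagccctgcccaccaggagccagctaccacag
Serpina3g, chr12:104235897-104236196, plus strand: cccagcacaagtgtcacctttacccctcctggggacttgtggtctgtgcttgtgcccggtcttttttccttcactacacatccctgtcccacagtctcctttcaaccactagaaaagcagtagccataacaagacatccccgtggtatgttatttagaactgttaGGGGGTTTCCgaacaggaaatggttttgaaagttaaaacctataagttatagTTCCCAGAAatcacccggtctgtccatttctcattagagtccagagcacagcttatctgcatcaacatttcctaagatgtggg
Serpinb9, chr13:33004291-33004590, plus strand: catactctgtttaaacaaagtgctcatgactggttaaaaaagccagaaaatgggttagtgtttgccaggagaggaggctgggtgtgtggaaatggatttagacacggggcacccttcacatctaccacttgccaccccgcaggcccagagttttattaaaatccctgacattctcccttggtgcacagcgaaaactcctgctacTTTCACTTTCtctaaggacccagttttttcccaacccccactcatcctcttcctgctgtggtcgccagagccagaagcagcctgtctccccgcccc

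RefSeq lists a further Serpina3f start downstream, whose region holds the same STAT match, there at -210, and 0 NF-kB matches. The printed Serpina3f and Serpina3g regions aligned over 202 bases with 83.7% identity. Each held an NF-kB match followed by a STAT match whose first bases lay 52 bases apart, starting at -173 and -121 from the RefSeq start in Serpina3f and at -85 and -33 in Serpina3g. The same order and the same spacing of 52 bases occurred in Serpina3i, at -154 and -102. The spacing counts from the first NF-kB match, and Serpina3f and Serpina3i each held another that overlaps it, at -172 and -153. The Serpina3i region was not aligned with the others. Neighbouring genes of such similar sequence are not independent cases of this spacing. RefSeq starts can differ from the gene starts given in this text. The Serpina3g region ends before the gene start given above, and the Serpinb9 region lies inside its gene span. Distances from the start are therefore not alike between genes. Serpinb9 held a match to the interferon-stimulated element, at -46 to -37, and none to the other motifs in this window. The region of Serpinb6b held 0 matches. Of the regions at the annotated starts of Serpinb6a, the upstream held STAT and interferon-stimulated matches and the downstream NF-kB matches. Of 32851 such regions of mouse genes, 50.8% held the NF-kB letters, 8.3% the STAT letters, 3.54% both and 3.4% the interferon-stimulated element. These matches are a description of the letters, not of bound sites.

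Serpina3g, the inhibitor of lysosomal cathepsins, was higher in each TNFa library than in any PBS library. It stood at 856.7, 752.5 and 1079 CPM in TNFa replicates 4, 5 and 6, against 323.7, 320.0 and 291.9 CPM in PBS replicates 1, 2 and 3. The groups did not overlap, and TNFa replicate 6 was the highest and replicate 5 the lowest of the treated libraries. The fitted ratio was 2.87-fold (95% interval 2.32 to 3.55), a log2 fold change of 1.52 ± 0.14 (SE, n = 3 each). The group means were 896.2 ± 166.9 CPM with TNFa and 311.9 ± 17.4 CPM with PBS (SD), so the treated libraries were the more scattered.

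Serpina3f, its neighbour, was higher with TNFa by a similar ratio. It was at 77.2, 56.5 and 99.5 CPM in TNFa replicates 4, 5 and 6, against 26.3, 30.4 and 26.6 CPM in PBS replicates 1, 2 and 3. Again the groups did not overlap, and the treated libraries fell in the same order as for Serpina3g. The fitted ratio was 2.80-fold (95% interval 2.06 to 3.80; log2 fold change 1.49 ± 0.20, SE). Leaving out TNFa replicate 6 gave log2 fold changes of 1.27 for Serpina3f and 1.37 for Serpina3g, and leaving out TNFa replicate 5 gave 1.67 and 1.63.

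The other Serpina3 rows were not members and could be tested. Serpina3i was at 13.2 ± 2.94 CPM with TNFa and 5.59 ± 0.41 CPM with PBS, a log2 fold change of 1.25 ± 0.24 (SE) that did not pass over all genes (edgeR quasi-likelihood test, Benjamini-Hochberg adjusted p = 0.153). It passed without TNFa replicate 5 (adjusted p = 0.0333) and in DESeq2 (adjusted p = 0.000275). The pseudogene Serpina3h was at 2.31 ± 0.43 CPM with TNFa and 0.984 ± 0.47 CPM with PBS (log2 fold change 1.23 ± 0.49, adjusted p = 0.524). The groups did not overlap for either row, and both share part of their windows with Serpina3g.

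Because reads can be divided wrongly among these rows, their composition and their sum were also taken. Serpina3g held 90.7% ± 0.84 of the counts of the 4 Serpina3 rows with TNFa and 90.1% ± 0.58 with PBS, and Serpina3f held 7.77% ± 0.78 with TNFa and 8.02% ± 0.58 with PBS (SD, n = 3 each). The Serpina3f share overlapped between the groups, at 6.88% to 8.31% with TNFa and 7.37% to 8.49% with PBS. Serpina3i held 1.33% ± 0.07 with TNFa and 1.61% ± 0.07 with PBS, without overlap. The sum, which does not depend on how reads were divided among these rows, was at 949.3, 821.3 and 1198 CPM in TNFa replicates 4, 5 and 6, against 356.9, 357.4 and 324.3 CPM in PBS replicates 1, 2 and 3. Its log2 fold change was 1.52 ± 0.14 (SE), as for Serpina3g alone. Of the 6 estimated counts of Serpina3f and the 6 of Serpina3g, 0 were whole within 0.01.

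**Figure D2:**
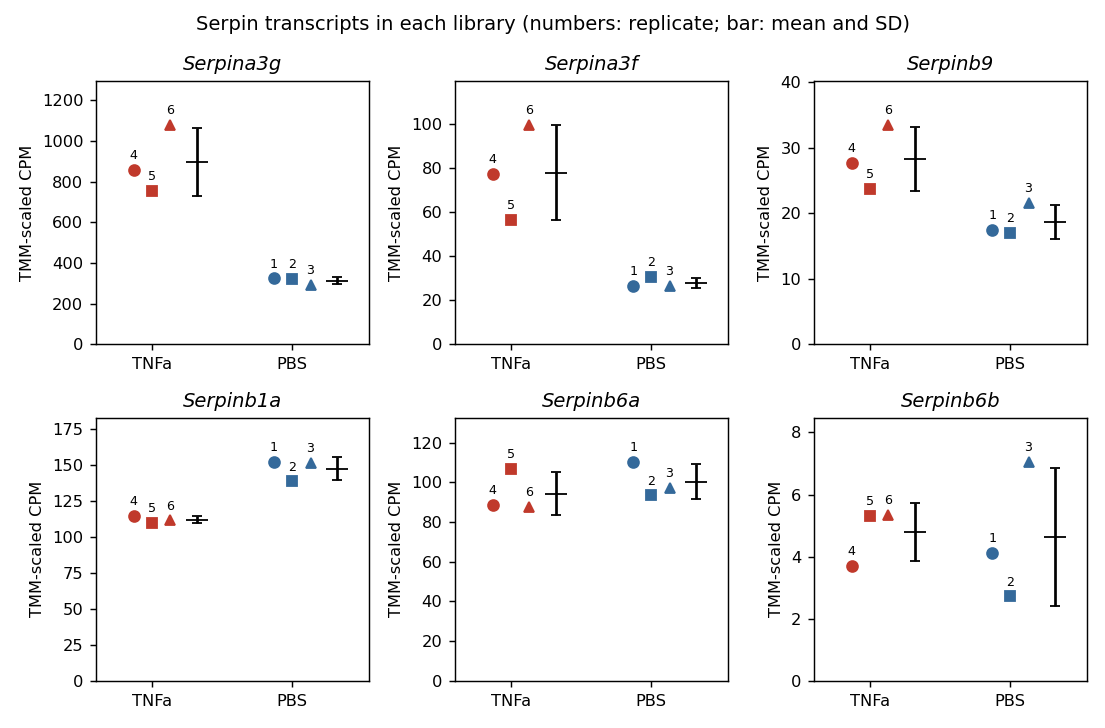
TMM-scaled CPM of the 6 members in each library, TNFa in red and PBS in blue, with the replicate number above each point and the mean and SD (n = 3) beside each group. Serpina3g, Serpina3f and Serpinb9 are higher and Serpinb1a lower in all 3 TNFa libraries than in any PBS library, while Serpinb6a and Serpinb6b overlap.

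Among the clade B members, Serpinb9 was higher and Serpinb1a lower with TNFa, and neither Serpinb6 gene was separated between the groups. These genes lie on chromosome 13 (mm10) within 1160.7 kb: Serpinb1a at 32842092 to 32851185 on the minus strand, Serpinb6b at 32965209 to 32979067 and Serpinb9 at 33003250 to 33017957 on the plus strand, and Serpinb6a at 33917918 to 34002794 on the minus strand. Serpinb6a and Serpinb6b were 86.3% identical in coding sequence, and the clade B pairs from different subfamilies 60.4% to 69.1%.

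Serpinb9, the granzyme B inhibitor, was at 27.7, 23.8 and 33.5 CPM in TNFa replicates 4, 5 and 6, against 17.4, 16.9 and 21.6 CPM in PBS replicates 1, 2 and 3. The groups did not overlap, though TNFa replicate 5 and PBS replicate 3 were close. The fitted ratio was 1.52-fold (95% interval 1.14 to 2.03; log2 fold change 0.60 ± 0.19, SE). Its treated libraries fell in the same order as those of the Serpina3 pair. The sum with its paralogue Serpinb9b gave a log2 fold change of 0.61 ± 0.20 (SE), and 0.81 without PBS replicate 3. That library held 105 estimated counts of Serpinb9b, against 1 and 1.08 in PBS replicates 1 and 2 and 33.7 to 69 with TNFa.

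Serpinb1a, the leukocyte elastase inhibitor, was at 114.8, 109.8 and 111.6 CPM in TNFa replicates 4, 5 and 6, against 152.5, 138.7 and 151.7 CPM in PBS replicates 1, 2 and 3. All treated libraries lay below all PBS libraries, and they were tightly grouped. The fitted ratio was 0.76-fold (95% interval 0.65 to 0.89; log2 fold change -0.40 ± 0.10, SE), and the value stayed between -0.44 and -0.37 whichever library was left out. It was the only row of its subfamily in the table. Of the marker sums given above, those of mast, myeloid, B and structural cells overlapped between the groups. The sum of NK cells and ILC1s without Gzma did so too, and that of T cells was lower with TNFa without overlap. The part of such cells in the Serpinb1a value was not tested.

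Serpinb6a was at 88.5, 106.6 and 87.7 CPM in TNFa replicates 4, 5 and 6, against 110.4, 93.4 and 97.1 CPM in PBS replicates 1, 2 and 3, and the groups overlapped. Its log2 fold change was -0.09 ± 0.12 (SE), with a 95% interval of 0.78 to 1.14 for the ratio. Of the genes on its opposite strand, Ripk1, a kinase of TNF receptor signalling, was at 70.3 ± 13.9 CPM with TNFa and 84.3 ± 9.08 CPM with PBS, and Nqo2 at 22.2 ± 1.66 CPM with TNFa and 27.9 ± 2.20 CPM with PBS (adjusted p = 0.721 and 0.625, edgeR). Serpinb6b was at 3.72, 5.31 and 5.36 CPM in TNFa replicates 4, 5 and 6, against 4.12, 2.72 and 7.06 CPM in PBS replicates 1, 2 and 3. It was the least abundant member, and its wide spread left a 95% interval of 0.57 to 1.89 for the ratio. Its fitted sign changed with the library left out, between -0.22 without PBS replicate 2 and 0.48 without PBS replicate 3.

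All 6 members passed the filter on low counts. In the fit across all genes, 2 of the 6 members were called at an adjusted p under 0.05, Serpina3f and Serpina3g, both higher; over all 15719 tested genes 0.102% were called, 0.0891% higher and 0.0127% lower. DESeq2 also called Serpinb1a, 3 members in all, and 1.39% of all genes. The groups did not overlap for 4 of the 6 members, 3 higher and 1 lower, against 15.2% of all tested genes, 6.85% higher and 8.35% lower. The contrast behind these counts is the one the genes were chosen with, so nothing is read from them. The count of members called depended on single libraries: it was 0 without any 1 of the PBS replicates, 1 without TNFa replicate 4 or 6 and 2 without TNFa replicate 5, with fewer libraries in each of these fits.

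**Figure D3:**
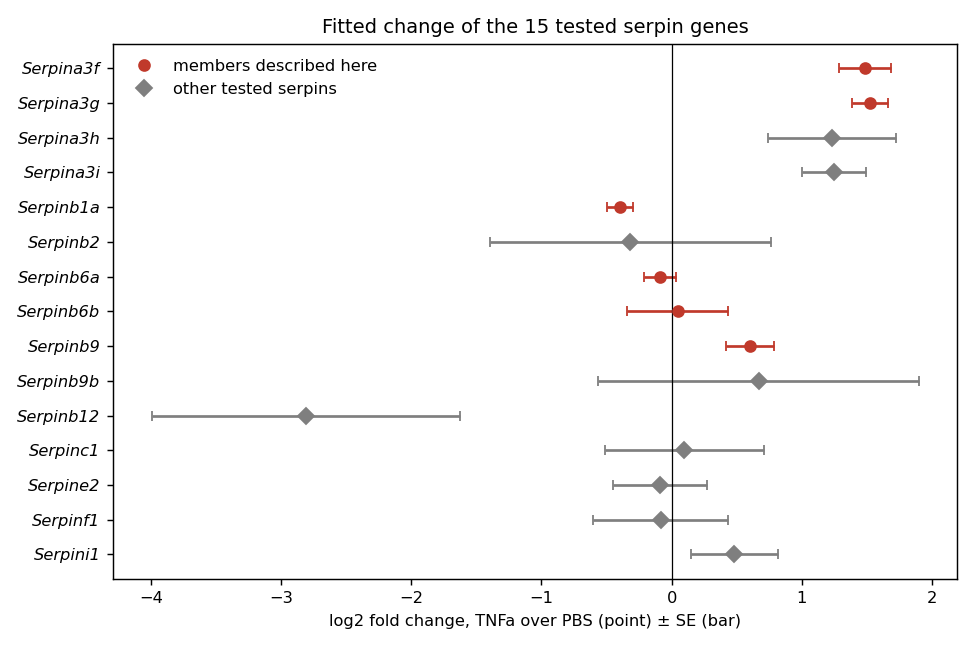
Log2 fold change of TNFa over PBS for the 15 tested serpin genes, with SE as bars (n = 3 libraries each); red points are the members and grey diamonds the other serpins. The 4 Serpina3 rows lie between 1.23 and 1.52. Serpinb9 lies at 0.60 (SE 0.19), Serpinb1a at -0.40 (SE 0.10) and Serpinb12, of few counts, at -2.81 (SE 1.19). The rest lie on both sides of 0, with wide bars for genes of few counts.

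Per transcript length, the order of the members changed with TNFa in the middle of the list. TPM values, counts divided by the exon length of each gene and scaled to a common total per library, were computed from the estimated counts. Serpina3g was at 1139 ± 289.8 TPM with TNFa and 403.3 ± 12.2 TPM with PBS. It was above every other member in every library. Serpinb1a followed at 129.2 ± 13.3 TPM with TNFa and 174.7 ± 10.9 TPM with PBS. Serpina3f came next with TNFa, at 91.3 ± 31.3 TPM, and was below Serpinb1a in every treated library. In TNFa replicate 6, where they were closest, Serpina3f was at 121.5 TPM and Serpinb1a at 135.5 TPM. With PBS, Serpinb6a followed Serpinb1a at 50.4 ± 2.94 TPM, above Serpina3f at 33.0 ± 3.20 TPM without overlap. With TNFa, Serpinb6a stood at 45.9 ± 1.00 TPM, below Serpina3f in every library. Serpinb9 was at 21.7 ± 5.28 TPM with TNFa and 14.6 ± 2.55 TPM with PBS, and Serpinb6b was lowest, at 5.6 ± 1.04 TPM with TNFa and 5.63 ± 2.88 TPM with PBS. The exon length of Serpinb6a, 5409 bases, joins many annotated isoforms and lowers its TPM. In CPM, without lengths, Serpinb6a averaged 94.3 with TNFa, above Serpina3f at 77.7. Only in replicate 6 was Serpina3f the higher, at 99.5 against 87.7 CPM. The change of order between these genes thus depends on the lengths used.

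Apart from Serpina3i, described above, the remaining serpins were sparse. Of 13 other serpin rows, 9 were tested and 0 were called by edgeR, with 3 at an unadjusted p under 0.05 (Serpina3h, Serpina3i and Serpinb12), a level reached by 8.31% of all tested genes, and 1 called by DESeq2 (Serpina3i). Serpinb12 had 9, 0 and 0 counts in TNFa replicates 4, 5 and 6, against 27, 20 and 27 in PBS replicates 1, 2 and 3, and did not pass (adjusted p = 0.558). Serpinb8 had 24, 4 and 0 counts in TNFa replicates 4, 5 and 6 and 0 in each PBS library, too few to be tested. The most abundant serpin outside both clades was Serpini1, neuroserpin, at 7.18 ± 1.04 CPM with TNFa and 5.13 ± 2.14 CPM with PBS (log2 fold change 0.48 ± 0.33, SE, adjusted p = 0.747). Serpine2, protease nexin-1, was at 3.82 ± 1.13 CPM with TNFa and 4.07 ± 1.17 CPM with PBS (adjusted p = 0.967).

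Protease families, some of whose members serpins inhibit, were examined as lists. Of 14 cathepsin and legumain genes, lysosomal proteases, some of which Serpina3g inhibits, 0 were called (edgeR), with 5 at an unadjusted p under 0.05, against 8.31% of all tested genes, and 1 called by DESeq2. Their fitted values were negative in 10 and positive in 4, with a median log2 fold change of -0.25 against 0.005 over all tested genes. Ctsb, cathepsin B, was at 234.5 ± 13.2 CPM with TNFa and 296.3 ± 6.41 CPM with PBS (log2 fold change -0.34 ± 0.10, SE, adjusted p = 0.354), without overlap. Ctsd, the most abundant, was at 487.2 ± 16.5 CPM with TNFa and 557.8 ± 21.4 CPM with PBS (adjusted p = 0.622), and Ctsz at 306.7 ± 21.8 CPM with TNFa and 291.8 ± 24.5 CPM with PBS (adjusted p = 0.896).

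Of 18 tested serine proteases, 0 were called (edgeR), with 6 at an unadjusted p under 0.05, against 8.31% of all tested genes, and 4 called by DESeq2, and the median log2 fold change was -0.05. Gzmb, the granzyme that Serpinb9 inhibits, was at 87.5 ± 10.5 CPM with TNFa and 152.8 ± 12.4 CPM with PBS, lower in all 3 treated libraries (log2 fold change -0.80 ± 0.12, SE). It missed the threshold over all genes (adjusted p = 0.0627) and passed without TNFa replicate 5 (0.026) and in DESeq2 (3.48e-06). Gzma was at 13.4 ± 5.93 CPM with TNFa and 50.4 ± 15.02 CPM with PBS (adjusted p = 0.0879), and it too passed without TNFa replicate 5 (0.0055) and in DESeq2 (6.77e-07). The NK cell and ILC1 markers, of which Gzma is 1, had 0 of 8 tested genes called (edgeR, 2 at an unadjusted p under 0.05, 1 by DESeq2), and their sum without Gzma overlapped between the groups, as given above. The part of such cells in the granzyme and Serpinb9 values was not tested. The values of Serpinb9 and Gzmb thus lay in opposite directions between the same groups. Serpinb9 was called by neither edgeR nor DESeq2, and a link between Serpinb9 and Gzmb was not tested. Of the granulocyte enzymes that Serpinb1a and Serpinb6a act on, Ctsg, cathepsin G, was at 18.9 ± 1.89 CPM with TNFa and 18.6 ± 5.37 CPM with PBS (adjusted p = 0.982). Elane, neutrophil elastase, was listed at 0 in all TNFa libraries and averaged 0.795 ± 1.38 CPM with PBS. Its SD with PBS exceeded its mean, and it was too sparse to be tested. The mast cell tryptase Tpsab1 was at 762.9 ± 53.5 CPM with TNFa and 703.2 ± 66.0 CPM with PBS (adjusted p = 0.813).

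Caspases, proteases of cell death and inflammasomes, had 0 of 8 genes called (edgeR), with 2 at an unadjusted p under 0.05, 1 called by DESeq2 and a median of -0.04. Of 18 protease inhibitors outside the serpin family, 1 was called. It was Birc3 (cIAP2), a ubiquitin ligase listed as an inhibitor of caspases, at 117.4 ± 10.9 CPM with TNFa and 62.9 ± 7.17 CPM with PBS (adjusted p = 0.043). The list's median was 0.17, with 11 fitted values positive and 7 negative. Cst3, the cysteine protease inhibitor cystatin C, was at 201.7 ± 34.2 CPM with TNFa and 221.3 ± 20.5 CPM with PBS (adjusted p = 0.84). Cast, the calpain inhibitor calpastatin, was at 167.2 ± 13.4 CPM with TNFa and 216.0 ± 12.9 CPM with PBS (log2 fold change -0.37 ± 0.11, SE, adjusted p = 0.356).

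NF-kB and interferon response genes were set beside the members library by library. Of 23 NF-kB feedback and target genes, 4 were called higher and 0 lower (Nfkb2, Nfkbia, Traf1 and Birc3), with a median log2 fold change of 0.31. Fitted values were positive in 18 and negative in 5. In either direction, 13 were at an unadjusted p under 0.05, against 8.31% of all tested genes, and 8 were called by DESeq2. Nfkb1, the most abundant of the list, was lower without overlap, at 242.0 ± 28.8 CPM with TNFa and 370.4 ± 18.1 CPM with PBS. It had a log2 fold change of -0.615 ± 0.112 (SE), with an adjusted p of 0.113 in edgeR and 0.000595 in DESeq2. The mean log2 CPM of the list stood 0.56, 0.25 and 0.47 above the PBS mean in TNFa replicates 4, 5 and 6. Of 23 interferon response genes, 0 were called (edgeR), with 15 at an unadjusted p under 0.05, against 8.31% of all tested genes, and 5 called by DESeq2, and the median was 0.79. Their mean stood 0.64, 0.33 and 1.46 above the PBS mean in TNFa replicates 4, 5 and 6, and 22 of the 23 were at their highest of all libraries in replicate 6. Serpina3g stood 1.46, 1.27 and 1.79 above its PBS mean in the same libraries, Serpina3f 1.48, 1.03 and 1.84, and Serpinb9 0.58, 0.36 and 0.85. The order replicate 6, then 4, then 5 was thus common to these members and the interferon list. The NF-kB list had replicate 4 highest and, like them, replicate 5 lowest. Of the called NF-kB genes, Birc3 had the same order as these members, and Nfkb2, Nfkbia and Traf1 had other orders. The share of all genes with this order was not counted, and a link of the members to either list was not tested. Irf1, a transcription factor of the interferon list, was at 162.4 ± 76.2 CPM with TNFa and 94.2 ± 4.72 CPM with PBS (adjusted p = 0.435). The part of the interferon signature of replicate 6 in the serpin values was not tested; without that replicate the values of the Serpina3 pair are those given above, and that of Serpinb9 was 0.46 on the log2 scale.

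**Figure D4:**
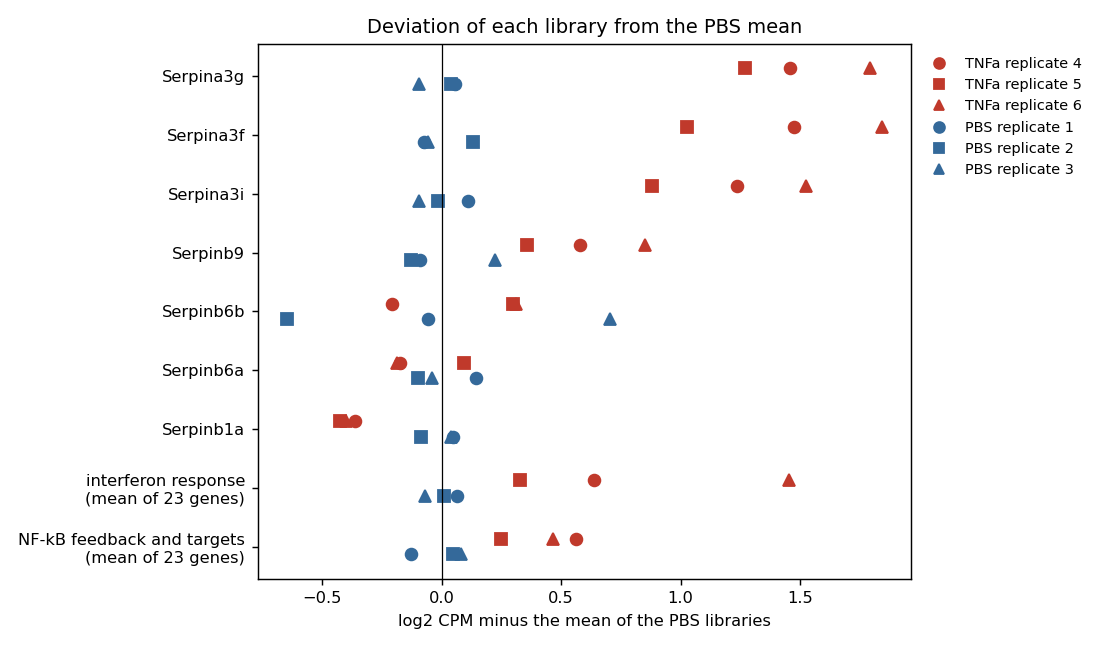
Log2 CPM of each library minus the mean of the PBS libraries, for the members, Serpina3i and the means of the interferon response and NF-kB lists; red marks TNFa and blue PBS, and the symbol gives the replicate. TNFa replicate 6 lies farthest right for the Serpina3 genes, Serpinb9 and the interferon list, while Serpinb1a lies left of 0 in all 3 TNFa libraries.

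Across the 6 libraries, Serpina3f and Serpina3g had a Pearson correlation of 0.988 in log2 CPM, Serpina3g and Serpinb9 of 0.898, and Serpina3g and Serpinb1a of -0.952. These values are a description over 2 groups of 3 libraries and include the difference between the groups. Among 8748 genes with a mean of at least 10 CPM, the 5 most like Serpina3g, leaving out Serpina3f, were Asb13 (r = 0.995), Upp1 (0.988), Snhg15 (0.987), Podnl1 (0.986) and Cct5 (0.984), and 37 genes (0.423%) reached 0.95. Upp1, uridine phosphorylase, was at 92.2, 77.4 and 98.1 CPM in TNFa replicates 4, 5 and 6, against 37.4, 39.9 and 30.1 CPM in PBS replicates 1, 2 and 3. It thus had the same order of the treated libraries as Serpina3g. Cct5, a chaperonin subunit, had the same pattern over a far smaller range, at 632.1 ± 7.96 CPM with TNFa and 560.0 ± 7.47 CPM with PBS.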

How the data were processed

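Total RNA of the 6 samples was sequenced after cDNA synthesis from 10 ng, per the labels' protocols. Per the file headers, the authors quantified genes in Partek by expectation-maximization, and the deposited unit is the estimated count, in which a read matching several genes is divided among them. CASAVA 1.8.2, STAR 3.5.3, Partek and mm10 are listed in the submitters' processing notes, with no role. Annotation release, read length and strandedness: not given in the sources used here. These counts were not scaled, and 41.7% of the values were whole within 0.01. The table held 0 further columns of samples.

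The rounded values entered edgeR 4.0.16 (R 4.3.3): filterByExpr (minimum count 10, minimum total 15), TMM scaling, the robust quasi-likelihood test over 15719 genes, and Benjamini-Hochberg adjustment with a threshold of 0.05. CPM values are TMM-scaled, and intervals are 95%. Totals of 25089415 to 32487004 counts make counting error small for genes above 10 CPM, so the spread between libraries limits precision. On data simulated for TNFa against PBS with 15719 genes, calls reached 20.9% of the genes altered 1.5-fold, 35.8% at 2-fold and 68.2% at 4-fold, and 11 of 94 calls were false. DESeq2 1.42.0 was an alternative. No 2 libraries of a group were alike within counting error (chi-square over its degrees of freedom 15.5 to 113.8), so each counted as 1. Log2 CPM used a prior count of 2. Transcripts, lengths and coding sequences came from GENCODE M21, where 21681 of the 21825 symbols were found, and start regions from RefSeq (GRCm38.p6). Coordinates are mm10 and 1-based.

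The members and the gene lists were chosen with earlier results of these data known. Named genes were taken from the members, the called genes and the 3 most abundant of each list, a set of granzyme, NF-kB and interferon genes, and the 5 genes most like Serpina3g. Genes on the strand opposite Serpinb6a, Icos, Thy1, Gata3, Il1rl1 and further cathepsins, serine proteases and serpins were named after their values were seen.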

Additional observations from a re-analysis of the deposited data

How the results depend on the processing

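No paired analysis was possible because the groups share no replicate numbers. Under every alternative run, the log2 fold changes of all 6 members and of the 4 subfamily sums moved by less than the within-group SD. Leaving out 1 of 3 libraries can hardly move a group mean by more than that SD. This measure therefore says little about stability, and the sign of Serpinb6b changed within it. Leaving out 1 library gave 1.27 to 1.67 for Serpina3f, 1.37 to 1.63 for Serpina3g, -0.44 to -0.37 for Serpinb1a, -0.19 to -0.01 for Serpinb6a, -0.22 to 0.48 for Serpinb6b and 0.46 to 0.72 for Serpinb9. The counts of calls changed between the runs. Of the members, 2 were called, 1 with library totals only, 1 with no filter, 3 with DESeq2 and 0 to 2 when a library was left out. Over all genes 16 were called, 3 with no filter, 25 with a mean of at least 5 CPM, 218 with DESeq2 and 1 to 67 when a library was left out. Of the serpins outside the members and the protease, inhibitor, NF-kB and interferon genes together, 4 were called, 0 were called with no filter, 20 with DESeq2 and 0 to 14 when a library was left out. Of the other serpins, 1 was called with DESeq2 and 0 to 1 when a library was left out. The cause was not tested, other than that leaving out a library leaves fewer samples. The shared windows fell with their length, to 5.33% for Serpina3f and 7.69% for Serpina3g at 75 bases and 27.3% and 28.4% at 31 bases. Serpinb6b, with 80 to 223 estimated counts per library, had the widest spread of the members, a within-group SD of 0.52 on the log2 scale.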
